A study of Rattus norvegicus with 6 samples.

Results

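The interleukin 1 (IL-1) family was examined in rat heart muscle 6 h after coronary ligation, through the array probes whose RefSeq accession maps to Il1a, Il1b, Il1rn, Il1r1, Il1r2, Il1rap, Il1rl1, Il18 or Il33. Of these 9 genes, 8 had a probe, out of 13870 genes with a named probe. They were read by 10 probes of 1 spot each, because Il1rap and Il1rl1 have 2 probes. Il1r1, the signalling receptor for both IL-1 ligands, had no probe under this rule and was not analysed here. The border zone group held 3 male Wistar rats (arrays M17, M24 and M25) in which the left anterior descending coronary artery (LAD) had been ligated. Their tissue at the edge of the infarct was located by a double stain with TTC and EB. The sham group held 3 male Wistar rats (arrays C4, C5 and C6) that were sham-operated. Both groups were sampled at 6 h, and the labels give no age, transgene or drug for either. Each array measured total RNA of whole tissue, so fewer cells of a type and less RNA per cell cannot be told apart.

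Il1a and Il1b encode the ligands IL-1alpha and IL-1beta, which bind the receptor Il1r1 together with its shared accessory chain Il1rap and start NF-kappaB and MAP kinase signalling through the adaptor Myd88. The family holds its own brakes. Il1rn encodes a receptor antagonist that occupies Il1r1 without signalling, and Il1r2 is a decoy receptor that captures ligand but has no signalling domain. Il18 and Il33 are related ligands with receptors of their own, of which Il1rl1, also called ST2, is the IL-33 receptor and also exists as a soluble decoy. In infarcted heart IL-1beta is known as an early mediator of leukocyte recruitment, and IL-33 is known as a protein stored in nuclei and released by damaged cells.

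Promoter windows were found for every member except Il1r2. They are RefSeq sequences of the GRCr8 build that run from 250 bases before a transcript start to 50 after it. Those of Il1b, Il1rn and Il18, which were higher in the border zone, and of Il33, whose groups overlapped, are shown so that the promoters of members with different changes can be read side by side, each 5′ to 3′ on the strand of its gene. Capitals mark matches to the NF-kappaB consensus, which has none in these windows, to the TATA box letters TATAAA, searched on the gene's strand, and to the C/EBP letters TTNNGNAA, searched on both strands.
Il1b, chr3:137036532-137036831, minus strand: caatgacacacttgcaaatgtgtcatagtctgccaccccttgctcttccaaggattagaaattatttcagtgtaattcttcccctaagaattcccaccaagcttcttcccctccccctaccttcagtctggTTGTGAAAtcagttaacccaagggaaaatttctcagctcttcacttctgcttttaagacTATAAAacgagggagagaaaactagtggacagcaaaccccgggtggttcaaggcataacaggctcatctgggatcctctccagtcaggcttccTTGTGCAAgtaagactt
Il1rn, chr3:27520072-27520371, plus strand: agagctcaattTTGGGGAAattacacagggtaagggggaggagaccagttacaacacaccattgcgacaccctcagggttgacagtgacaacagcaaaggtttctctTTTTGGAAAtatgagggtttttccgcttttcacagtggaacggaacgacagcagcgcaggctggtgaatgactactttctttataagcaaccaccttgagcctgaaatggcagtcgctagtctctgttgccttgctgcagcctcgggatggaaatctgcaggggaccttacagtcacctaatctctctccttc
Il18, chr8:59801822-59802121, plus strand: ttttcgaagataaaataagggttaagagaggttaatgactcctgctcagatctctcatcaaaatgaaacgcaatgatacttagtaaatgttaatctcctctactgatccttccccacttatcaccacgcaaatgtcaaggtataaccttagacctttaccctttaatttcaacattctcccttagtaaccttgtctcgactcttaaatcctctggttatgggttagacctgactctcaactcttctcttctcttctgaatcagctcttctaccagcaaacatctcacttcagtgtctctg
Il33, chr1:237115323-237115622, plus strand: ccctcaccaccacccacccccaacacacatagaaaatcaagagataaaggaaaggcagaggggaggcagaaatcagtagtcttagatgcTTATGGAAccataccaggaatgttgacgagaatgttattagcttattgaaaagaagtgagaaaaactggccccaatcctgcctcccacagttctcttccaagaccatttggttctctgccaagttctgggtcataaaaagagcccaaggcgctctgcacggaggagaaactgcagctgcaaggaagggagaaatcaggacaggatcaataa
Il1b had 1 TATA match and 2 C/EBP matches, Il1rn had 3 C/EBP matches, of which 2 overlap each other, and Il33 had 1 C/EBP match in the window shown. Il18 had neither. Of the 33469 promoter windows of the table, 8.80% held TATAAA and 41.3% held TTNNGNAA. A further window of Il33, at another transcript start, held 1 TATA and 2 C/EBP matches. The NF-kappaB consensus, searched on both strands, also had no match in the windows of Il1a and Il1rl1. It had 1 match in the window of Il1r1 and 1 in each of the 2 overlapping windows of Il1rap, and was present in 7.51% of all windows. The AP-1 letters TGANTCA, present in 7.33% of windows on either strand, matched once each in Il1a and Il18. The PU.1 letters GAGGAA, present in 27.6% on either strand, matched once each in Il1a and Il1rl1. Il1a also had 1 TATA and 1 C/EBP match, whereas Il1r1, Il1rl1 and Il1rap had neither. The matches describe these windows only.

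The arrays differed in ways that touch several members. Between 74.3% and 78.3% of probes were well above background on the border zone arrays, 73.7% on sham C4, and 51.0% and 52.4% on sham C5 and C6. A single scan holds M17, M24, M25 and C4, whereas C5 and C6 were scanned apart, so comparison with C4 alone is the only one within a scan. Markers of central nervous tissue stood apart on C5 and C6, where all 19 measured markers were higher than on every other array. Of the 19, 15 were well above background on C5 and 16 on C6, and Syt1 and Slc17a7 on no array. The lowest log2 signal well above background was -4.49 on C5 and -3.98 on C6, against -7.41 to -6.98 on the other arrays. The order of these markers thus rests in part on spots not well above background. The same order held for 3 of 11 cardiomyocyte markers and for 5 of 11 other measured ligands and receptors of the family. Those 5, Il36a, Il36g, Il1f10, Il18r1 and Il1rapl2, were well above background on no array. The share of all genes with this order was not computed. M25 may not be an independent sample, since among the 572 probes tested that differed more than 2-fold between M17 and M24, M25 lay between those arrays for 97.6%. By contrast, M24 lay between M17 and M25 for 14.6% of the 137 probes that differed as much between those. Values with n = 3 therefore count arrays, and the results on single members are also given without M25 and against C4 alone.

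Of the 8 measured genes, 6 were well above background on all 6 arrays, and 4 of these rose in the border zone: the decoy receptor Il1r2 by 14.5-fold, the antagonist Il1rn by 12.8-fold, the ligand Il1b by 10.9-fold and the ligand Il18 by 2.81-fold. In these 4 the groups did not overlap, with all border zone arrays higher. Over all 8 members tested this order held for 6, Il1a and Il1rl1 included, and over all genes tested for 21.4%. The other 2 genes well above background on all 6 arrays, Il1rap and Il33, did not pass. In the fit limited to probes well above background on all arrays, the same 4 members were higher, against 1269 of 8160 genes. Il1a and Il1rl1 entered the test through the border zone alone, since most of their sham spots were not well above background. Of them Il1a did not pass. Il1rl1, the IL-33 receptor, passed with its brighter probe and a bound of at least 1.39-fold, but the difference was negative with normexp background correction (-0.23) and with its other probe (-0.97). That makes 5 genes higher in limma at an adjusted p below 0.05 and none lower (0 were lower at an unadjusted p below 0.05 either). Among all 10995 genes tested 9.9% were higher and 11.9% lower, and of 17930 probes 19.3% passed in either direction. The median log2 fold change over the 8 members was 2.26, which is set by Il1a and Il1rl1, and 1.81 with these at their bounds, whereas over all genes tested it was -0.047.

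**Figure D1:**
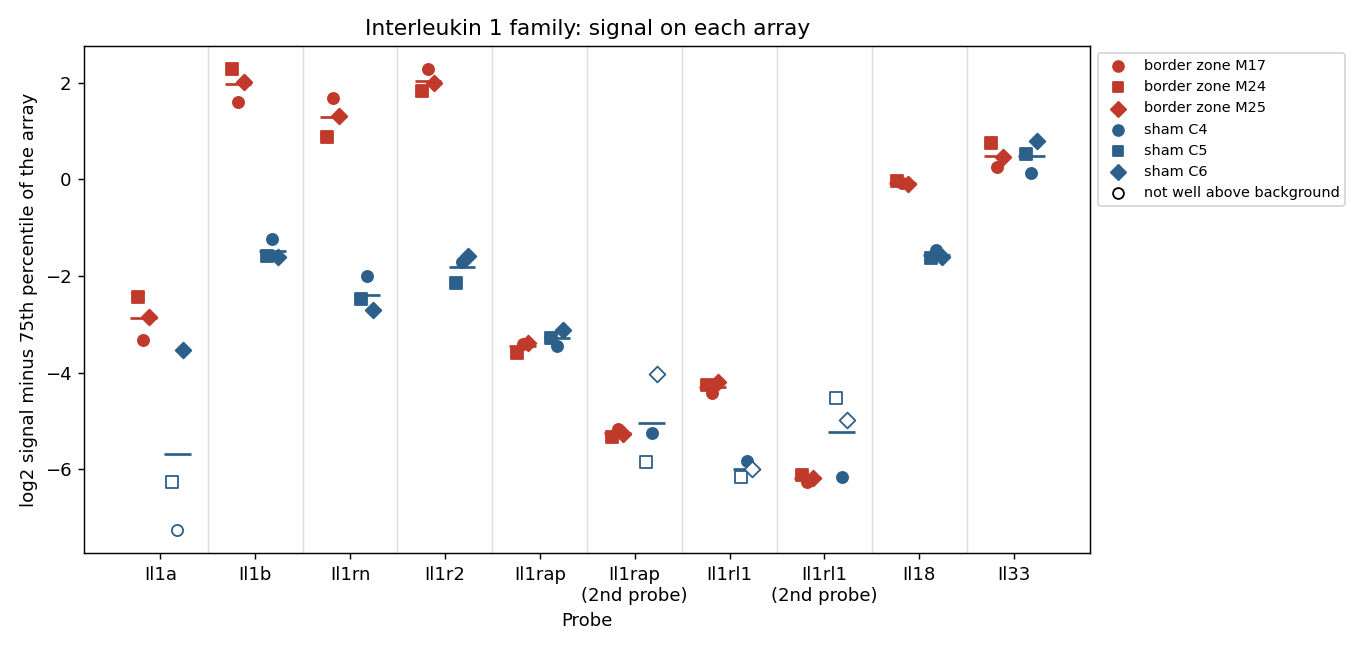
Normalized log2 signal (log2 processed signal minus the 75th percentile of the array, vertical axis) of each probe on the 3 border zone arrays (red, left) and the 3 sham arrays (blue, right), with bars at the group means and open symbols where a spot was not well above background. Il1b, Il1rn, Il1r2 and Il18 are filled on every array and separate the groups, whereas Il33 overlaps and Il1rl1 has open symbols on C5 and C6.

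Among the ligands, the log2 signal of Il1b, relative to the 75th percentile of its array, was 1.60, 2.29 and 2.02 on M17, M24 and M25, against -1.24, -1.58 and -1.61 on C4, C5 and C6. Every border zone array was above every sham array, and the gap between the groups was wider than the range within either. The log2 fold change was 3.44 ± 0.21 (SE, n = 3 arrays per group, adjusted p = 0.00124), which ranked 45 among the 10995 genes ordered from the largest rise. It was 3.42 without M25 (adjusted p = 0.0190) and 3.21 against C4.

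Il1a, the other ligand of the same receptor, gave a more uneven picture. It was at -3.32, -2.43 and -2.86 on this log2 scale on M17, M24 and M25, against -7.26, -6.26 and -3.53 on C4, C5 and C6. All border zone arrays were well above background, but among sham arrays only C6 was, and C6 lay just under the lowest border zone array. The log2 difference was 2.82 ± 0.95 (SE, n = 3 arrays per group) and did not pass (adjusted p = 0.0893). Against C4 alone it was 4.40 (adjusted p = 0.0147 with scan as a block, a fit without spread between sham arrays), but on C4 the spot was not well above background. It was 3.89 without C6 (adjusted p = 0.0100), 2.03 without C4 (adjusted p = 0.121), 2.81 without M25 (adjusted p = 0.226) and 0.53 with normexp (adjusted p = 0.328). With C4 and C5 raised to the lowest signal well above background on each array, the border zone was at least 4.38-fold above sham in the scaling used here, a bound that the normexp value does not reach.

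Il18, a ligand that needs cleavage by caspase 1 to become active, had close replicates. Its log2 signal was -0.07, -0.03 and -0.10 in the border zone, against -1.45, -1.63 and -1.60 in sham. The groups were far apart relative to an SD of 0.039 over border zone arrays and 0.094 over sham arrays. The log2 fold change was 1.49 ± 0.11 (SE, n = 3 arrays per group, adjusted p = 0.00161), 1.51 without M25 (adjusted p = 0.0261) and 1.38 against C4.

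Il33 was at 0.27, 0.76 and 0.46 on M17, M24 and M25, against 0.14, 0.52 and 0.79 on C4, C5 and C6. The highest and the lowest array were both sham, so the groups overlapped fully. The log2 difference of 0.01 ± 0.22 (SE, n = 3 arrays per group) did not pass (adjusted p = 0.974), which does not show that the level was the same. Against C4, the lowest array, it was 0.36, and without M25 it was 0.03. The summed signal of the 19 markers of central nervous tissue was 3.18 to 3.62 times the 75th percentile signal in the border zone and 5.83, 19.5 and 23.1 times on C4, C5 and C6, so the order of sham arrays was the same for Il33 and for these markers. Their part in the Il33 values was not tested.

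The antagonist and the decoy receptor rose together with Il1b. Il1r2 stood at 2.29, 1.84 and 1.99 on the same log2 scale on M17, M24 and M25, against -1.71, -2.15 and -1.58 on C4, C5 and C6. The sham arrays spanned 0.56 on this scale, and the groups were far apart. The log2 fold change was 3.86 ± 0.20 (SE, n = 3 arrays per group, adjusted p = 0.000799), rank 30 of 10995 genes. It was 3.88 without M25 (adjusted p = 0.0129) and 3.75 against C4.

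Il1rn stood at 1.68, 0.87 and 1.30 on M17, M24 and M25, against -1.99, -2.49 and -2.71 on C4, C5 and C6. M17 was the highest border zone array here and the lowest for Il1b. The log2 fold change was 3.68 ± 0.28 (SE, n = 3 arrays per group, adjusted p = 0.00182), rank 36 of 10995 genes, and it was 3.67 without M25 (adjusted p = 0.0239) and 3.28 against C4.

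The receptors Il1rl1 and Il1rap have 2 probes each, and the array files and the gene table do not say which receptor form a probe reads. The brighter Il1rl1 probe (NM_013037.1) was at -4.42, -4.27 and -4.19 on M17, M24 and M25, against -5.83, -6.17 and -6.00 on C4, C5 and C6. The border zone arrays and C4 were well above background, but C5 and C6 were not. The log2 difference was 1.71 ± 0.14 (SE, n = 3 arrays per group, adjusted p = 0.00216), 1.66 without M25 (adjusted p = 0.0281) and 1.53 against C4, or 2.90-fold. The lowest signals well above background on C5 and C6, at -4.49 and -3.98, lie close to the border zone values, so with these arrays raised to them the rise was at least 1.39-fold. With normexp background correction the difference was -0.23 (adjusted p = 0.530). The dimmer probe (NM_001127689.1) was at -6.27, -6.13 and -6.18 on the border zone arrays, against -6.15, -4.53 and -4.99 on C4, C5 and C6, where again only C4 was well above background. Its difference was -0.97 ± 0.41 (SE, n = 3 arrays per group, adjusted p = 0.149), -0.04 against C4 and -0.97 without M25. Without C4 it was -1.43 (adjusted p = 0.00357), against sham spots that were not well above background. The probes of this gene thus disagree: one was higher in the border zone than on C4, and the other stood close to C4 on every border zone array.

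Il1rap, the accessory chain shared by the IL-1 and IL-33 receptors, was at -3.40, -3.59 and -3.39 in the border zone, against -3.46, -3.28 and -3.13 in sham, with the brighter probe (NM_001167840.1). The groups overlapped, and the log2 difference of -0.17 ± 0.14 (SE, n = 3 arrays per group) did not pass (adjusted p = 0.405). It was -0.0013 against C4 and -0.20 without M25. The dimmer probe (NM_012968.1) was well above background on the border zone arrays and C4 only, with a difference of -0.21 ± 0.45 (SE, adjusted p = 0.759), -0.006 against C4 and -0.20 without M25.

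**Figure D2:**
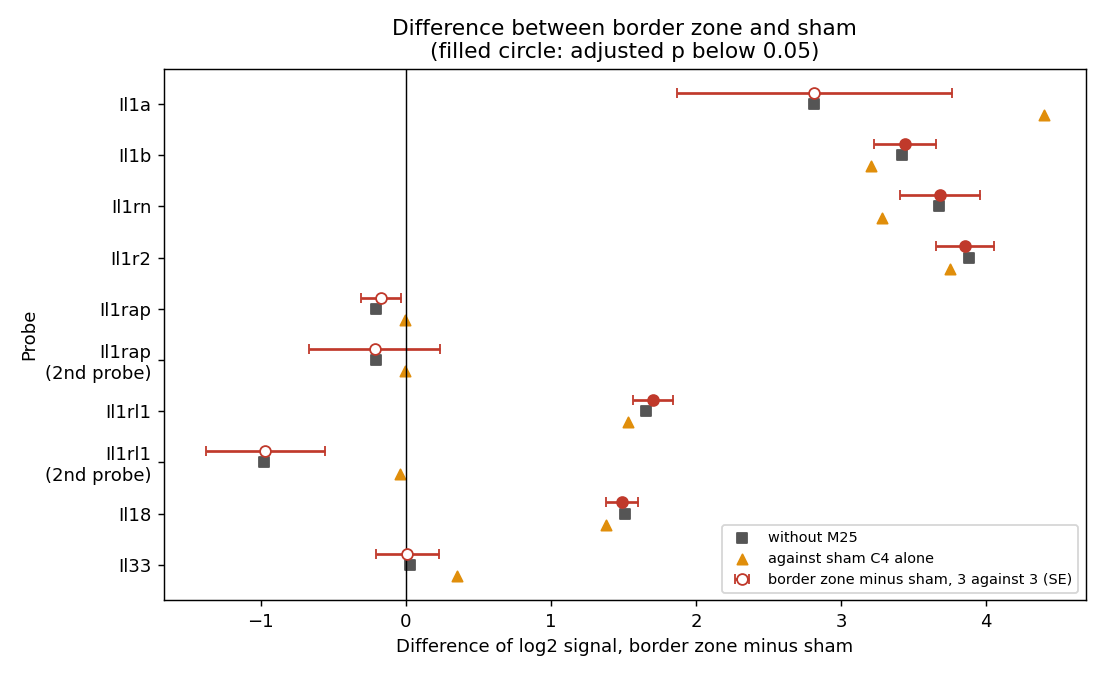
Difference of log2 signal, border zone minus sham (horizontal axis), for each probe, with 3 arrays against 3 (circles with SE, filled where the adjusted p is below 0.05), without M25 (squares) and against sham C4 alone (triangles). Il1b, Il1rn and Il1r2 lie between 3.21 and 3.88 in all 3 comparisons, whereas Il1a moves from 2.82 to 4.40 against C4.

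Leaving out arrays in doubt changed the calls unevenly. Without M25 the same 5 members, Il1rl1 included, were called higher, against 2.09% of genes tested. With scan as a block 6 were called higher, against 8.79% of genes. The added one, Il1a, is set there against a single spot of C4 that was not well above background. That fit takes its spread from the border zone arrays alone, with 2 residual degrees of freedom. Without M25 and with scan as a block, which leaves 1 residual degree of freedom, only Il1r2 passed (adjusted p = 0.0377), against 0.516% of genes, while Il1b (0.0668), Il1rn (0.0720), Il1rl1 (0.0878) and Il18 (0.0889) did not.

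**Figure D3:**
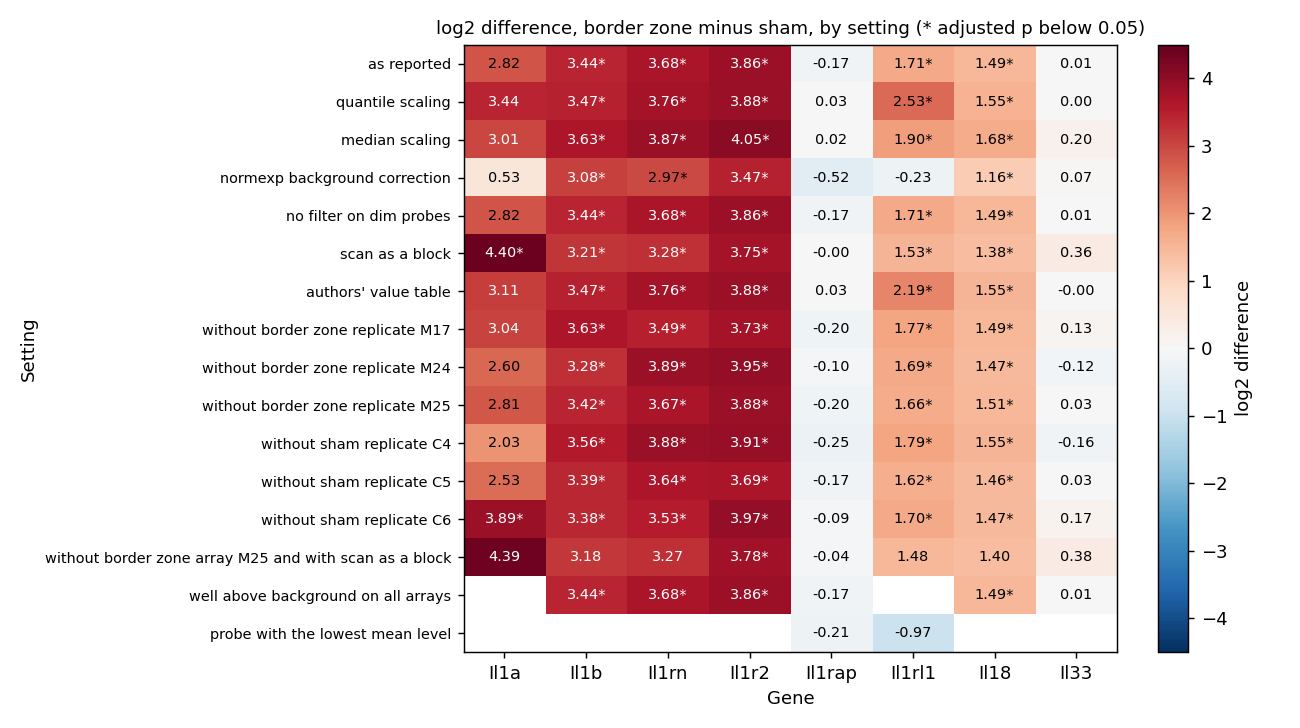
Log2 difference, border zone minus sham, of each member (columns) under each processing setting (rows), with an asterisk where the adjusted p is below 0.05 and blank cells where the setting does not apply. Il1r2 carries an asterisk in every row that holds it, whereas Il1rl1 turns to -0.23 with normexp and to -0.97 with its other probe.

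3 pairs of a ligand and its inhibitor or receptor were compared within each array, where the scaling of the array cancels. Only the change of such a difference between the groups can be read, not its level, since probes differ in brightness. For Il1rn minus Il1b the log2 difference was 0.08, -1.42 and -0.71 on M17, M24 and M25, against -0.76, -0.91 and -1.10 on C4, C5 and C6. The border zone arrays lay on both sides of the sham arrays, so the antagonist and the ligand did not change by detectably different amounts (0.24, or 0.07 against C4 and 0.26 without M25, exact permutation test, two-sided, p = 0.70, 0.70 adjusted over 3 pairs, n = 3 arrays per group).

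Il18bp, the secreted protein that binds and blocks IL-18, was at -1.01, -1.47 and -1.23 on M17, M24 and M25, against -0.85, -1.34 and -1.09 on C4, C5 and C6, and did not pass (-0.14 ± 0.19, SE, n = 3 arrays per group, adjusted p = 0.612, -0.38 against C4 and -0.15 without M25). Il18bp minus Il18 was -0.94, -1.44 and -1.12 in the border zone, against 0.60, 0.29 and 0.51 in sham. The groups did not overlap, and the change was -1.63 (-1.77 against C4, -1.66 without M25), with an exact two-sided permutation p of 0.10, 0.15 adjusted over the 3 pairs (n = 3 arrays per group). The smallest p that 3 arrays against 3 can give is 0.10. Il1rl1 minus Il33 was -4.69, -5.03 and -4.65 in the border zone, against -5.96, -6.69 and -6.80 in sham, a change of 1.69 (1.18 against C4, 1.63 without M25) with the same exact permutation p of 0.10 (0.15 adjusted, n = 3). The sham values of this pair rest on C5 and C6 signals of Il1rl1 that were not well above background, and the change was -0.30 with normexp.

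**Figure D4:**
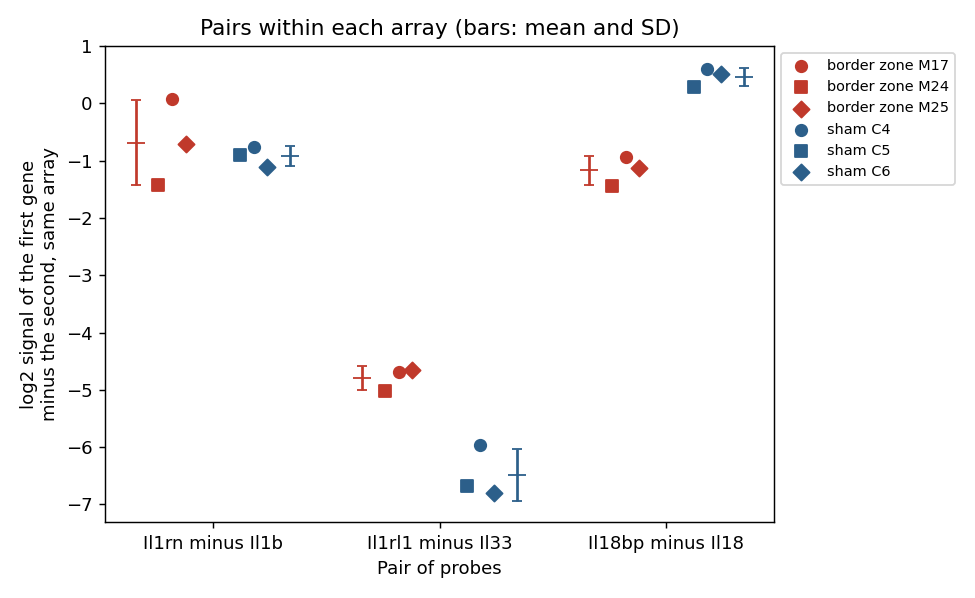
Log2 signal of the first gene minus the second on the same array (vertical axis), for 3 pairs, with border zone arrays in red on the left, sham arrays in blue on the right, and the mean with SD beside each group. The groups overlap for Il1rn minus Il1b and are separate for Il18bp minus Il18, at -1.17 ± 0.26 in the border zone and 0.47 ± 0.16 in sham (SD, n = 3 arrays each).

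Markers of leukocytes were set beside these members. Neutrophils are known to carry Il1r2 and to release IL-1beta. Of 10 measured neutrophil markers 8 were tested, 7 were called higher and 1 did not pass, where 9.9% of all genes were higher (4 without M25, where 2.09% of genes were, and 7 in the scan block fit, where 8.79% were). Only 2 of the 8 were well above background on all arrays, and 1 of these, S100a8, rose. Their summed signal was 5.52 to 5.85 times the 75th percentile signal in the border zone and 1.24 to 1.55 times in sham. Without the brightest, S100a8, it was 1.59 to 1.75 times in the border zone and 1.04 to 1.44 times in sham. Mmp8, Pglyrp1, Ltf and Fpr1 were not well above background on any sham array. Of 13 measured monocyte and macrophage markers 12 were tested, 5 rose and 2 fell (3 and 0 without M25). Their summed signal was 84.9 to 88.1 times in the border zone and 44.7 to 52.9 times in sham. Without Lyz2, the brightest of them, it was 34.7 to 41.0 times in the border zone and 32.2 to 33.8 times in sham. The markers of this list that rose were Cd14, Lyz2, Mrc1, Clec4e and C1qb, and those that fell were Adgre1 and Cx3cr1. Clec4e and Cx3cr1 were each well above background on 1 sham array only. Clec4e was at least 7.48-fold higher, while the fall of Cx3cr1 rests in part on sham spots not well above background. Against C4 Adgre1 differed by -1.11 and Cx3cr1 by -0.90. Over all genes tested 9.9% were higher and 11.9% lower. Cd163 was not well above background on any array. For mast cells and basophils, which carry ST2, 11 markers were measured and 10 tested. Of these 1 rose, Srgn, where 9.9% of all genes were higher. The 3 that fell were Cpa3, Kit and Fcer1a, where 11.9% of all genes were lower. Kit was well above background on 1 sham array and Fcer1a on 2, so their falls rest in part on spots near background. Against C4 Cpa3, Kit and Fcer1a differed by -1.52, -0.99 and -1.47. Without M25, 0 passed in either direction. The summed signal of the 11 markers was 3.49 to 4.57 in the border zone and 4.30 to 5.48 in sham. Hdc was not well above background on any array. The part of these cells in the changes of the IL-1 family was not tested.

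The rest of the pathway was described with lists of genes of known role, drawn up with earlier results of these data known. Their counts beside the shares of all genes therefore describe the lists and do not test them. Of 22 measured genes of IL-1 receptor signalling, all tested, 6 rose, 0 fell and 16 did not pass, with a median log2 fold change of 0.23 (6 of 22 against the 9.9% of all genes that were higher). The kinase Map3k8 rose by 2.55 ± 0.22, the adaptor Myd88 by 1.38 ± 0.15, Tifa, an adaptor of Traf6, by 1.27 ± 0.26, and Irak3, an inhibitory kinase of the receptor complex, by 1.26 ± 0.13 (log2, SE, n = 3 arrays per group). In this order their adjusted p-values were 0.00234, 0.00454, 0.0262 and 0.00394. Against C4 they differed by 2.31, 1.65, 1.37 and 1.43, and without M25 Tifa did not pass (adjusted p = 0.121). Myd88 was at 2.86, 3.00 and 2.93 in the border zone, against 1.28, 1.65 and 1.70 in sham, and the groups did not overlap. In the fit without M25, 3 genes of the list rose. The scan block gave 3 higher and 1 lower.

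The list for the inflammasome and IL-1 processing held 18 genes, of which 12 were measured. Nlrp3, Nlrc4, Aim2, Gsdmd, Card6 and Elane had no probe under the naming rule, so nothing can be said of them. Of the 12, 9 were tested, 1 rose and 8 did not pass, a share near the 9.9% of all genes that were higher. The median log2 fold change was 0.13. The 1 was Mefv, which encodes the inflammasome sensor pyrin, at -1.21, -1.79 and -1.54 in the border zone, against -2.80, -3.24 and -4.44 in sham (1.98 ± 0.44, SE, n = 3 arrays per group, adjusted p = 0.0305, and 0.121 without M25). Mefv was not well above background on 1 sham array, which makes the rise at least 3.56-fold. Caspase 1 (Casp1), which cleaves the precursors of IL-1beta and IL-18, was at 0.06, 0.68 and 0.45 in the border zone, against 0.64, -0.75 and -0.89 in sham, and did not pass (0.73 ± 0.44, SE, n = 3 arrays per group, adjusted p = 0.280, -0.24 against C4). C4 lay among the border zone arrays there.

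Of 11 other measured ligands and receptors of the family, 5 were tested by limma and 0 passed. Unadjusted p-values were below 0.05 for 0 of them, and the scan block fit called 1 higher. That 1, Il36b, was not well above background on any sham array, C4 included, and no fold is given for it. The one with the smallest p was Il1rl2, the receptor of the IL-36 ligands, at 0.79 ± 0.44 (SE, n = 3 arrays per group, adjusted p = 0.246), and -0.21 against C4. Among sham arrays Il1rl2 was well above background on 1 only. With the other sham spots raised to the lowest signal well above background, the ratio to sham was 0.725, so no rise can be read. Il36a, Il36g, Il1f10, Il18r1 and Il1rapl2 were not well above background on any array. Of 20 measured genes known to respond to IL-1, 18 were tested, 16 were called higher and 2 did not pass, where 9.9% of all genes were higher (7 without M25, where 2.09% of genes were, and 10 in the scan block fit, where 8.79% were). Of the 18, 9 were well above background on all arrays, and 8 of these rose, while 8 had sham spots that give only a bound. In the fit limited to probes well above background on all arrays, 1269 of 8160 genes were higher. The median log2 fold change was 2.62, or 2.37 with those 8 at their bounds. The cytokine Il6 was at 0.99, 2.76 and 2.16 in the border zone, against -7.17, -6.19 and -5.23 in sham, where no array was well above background, so it was at least 139-fold higher (adjusted p = 0.00197). The neutrophil chemokines Cxcl2 and Cxcl1 were at least 59.8-fold (adjusted p = 0.000799) and 46.8-fold higher (adjusted p = 0.000649). Cxcl2 was at 1.62, 1.45 and 1.51 in the border zone, against -4.65, -6.07 and -5.63 in sham, where 1 array was well above background. Ccl20, a chemokine for cells with the receptor Ccr6, was at least 26.2-fold higher (adjusted p = 0.00987), and did not pass without M25 (adjusted p = 0.0607).

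**Figure D5:**
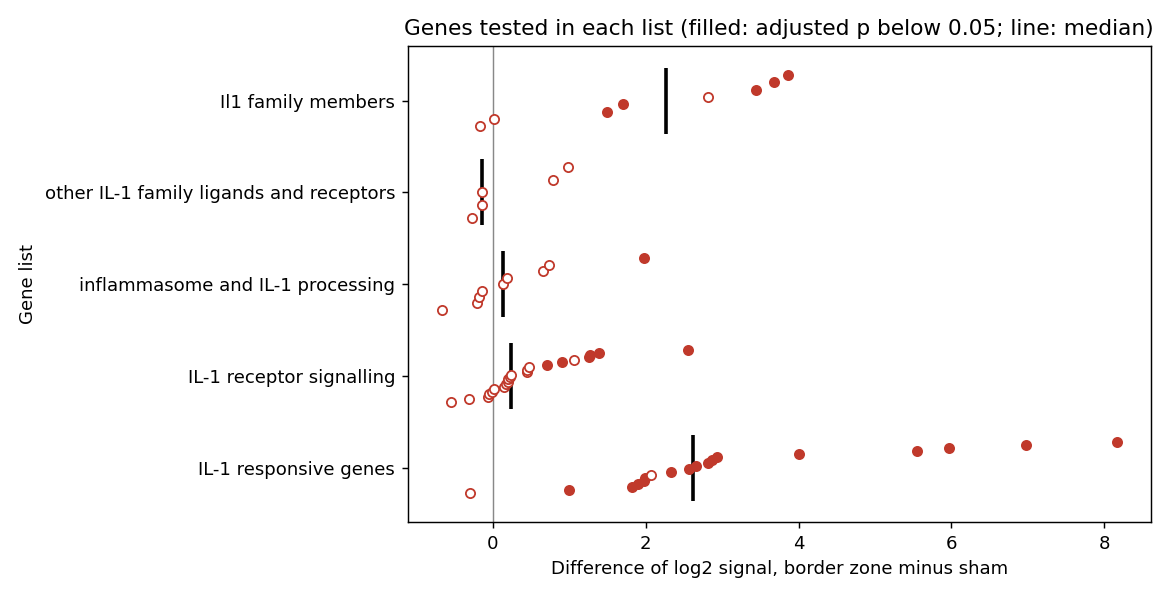
Difference of log2 signal, border zone minus sham (horizontal axis), of each gene tested in 5 lists (rows), filled where the adjusted p is below 0.05, with a line at the median of the list. The medians of fitted values are 2.26 for the IL-1 family members (1.81 with Il1a and Il1rl1 at their bounds), -0.14 for other ligands and receptors, 0.13 for processing, 0.23 for receptor signalling and 2.62 for responsive genes.

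Genes whose profile over the 6 arrays was nearest to a member were found by the root mean square difference of centred log2 values among 10983 other protein-coding genes tested. Nearest to Il1b were Gfpt2 at 0.0958, Fgl2 at 0.157 and Tnfrsf12a at 0.163, where the median over all genes was 1.78. Nearest to Il1r2 were Csf3r, the receptor of granulocyte colony stimulating factor, at 0.187, Fgf2 at 0.230 and Tent5a at 0.261, with a median of 1.97. Csf3r is also 1 of the neutrophil markers. Csf3r and Fgf2 were well above background on 1 sham array, so their distances rest in part on spots near background. Nearest to Il1rl1 were Sertad1 at 0.0629, Zfp281 at 0.0951 and Picalm at 0.109, with a median of 0.918. For Il33 they were Lsm5 at 0.0381, Lgi4 at 0.0422 and Tsen15 at 0.0479, with a median of 0.393. The distances to Il1rl1 rest on its C5 and C6 spots, which were not well above background. Such a distance is small for many genes when a member hardly varies, as for Il33. For a strongly changed member, a small distance needs a similar log2 fold change, as 3.82 for Csf3r against 3.86 for Il1r2. Shared regulation or shared cells were not tested.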

How the data were processed

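Gene expression was measured with 1-colour Agilent arrays, on 3 rats a group, per the design text. The spot signals are intensity values that the authors made with Agilent Feature Extraction 11.0.1.1, per the file headers, with background subtraction, spatial detrending and no scaling between arrays. Flags (other values, 0 or 1) were taken from the deposited spot rows. The authors' deposited table of log2 values, whose columns share nearly the same quantiles, served as an alternative.  Log2 processed signals minus the 75th percentile of each array were used. Control and outlier spots were dropped and repeat spots averaged, which kept 24614 of 24684 probes. Testing was limited to the 17930 probes that were well above background in every array of 1 or both groups.

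Groups were compared with limma 3.58.1 in R 4.3.3 (lmFit and eBayes, two-sided), adjusted by the Benjamini-Hochberg method over all probes tested, at a threshold of 0.05. Errors of log2 fold changes are standard errors of that fit. A fold is a lower bound where a spot not well above background was set to the lowest signal that is well above background on that array. Pairs were tested by exact permutation in scipy 1.17.1. Alternatives were other scalings, normexp (offset 50), other filters, scan as a block, the authors' table, another probe and leaving out each array. Normexp used median spot signals, since the files used here hold no mean spot signal, which had been planned. A planned pair of Il1r2 and Il1r1 was not computed, for lack of an Il1r1 probe. Probes were named through RefSeq accessions in a GRCr8 gene table (14257 named), and a gene was read by its probe with the highest mean. The array headers name build rn4. The number of arrays limits the precision. Members and lists were chosen with earlier results of these data known. The genes named are all members, up to 4 passing genes of a pathway list by absolute log2 fold change (or the 1 with the smallest p), the 3 nearest profiles of Il1b, Il1r2, Il1rl1 and Il33, and Il18bp. Casp1 was named after its values were seen.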

Additional observations from a re-analysis of the deposited data

How the results depend on the processing

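Over all probes the count of calls, 3460 as reported, depended on the arrays: leaving out 1 array gave 509 (without M25) to 7433 (without C4), with 286 to 3739 higher and 223 to 3694 lower. Without M25 and with scan as a block it was 77, with 66 higher and 11 lower, and 1 member passed, Il1r2, against 5. With no filter on dim probes it was 1826, with 791 higher and 1035 lower. Median scaling left 929 lower, and 67.6% of calls higher against 46.7% as reported. The median log2 difference of all probes was -0.026 as reported, 0.16 with median scaling, 0.094 with quantile scaling and -0.34 with normexp. Leaving out 1 array let 5 or 6 members pass. Il1rap was 0.026 with quantile scaling, 0.021 with median scaling and 0.026 in the authors' deposited table. Il1rl1 was -0.23 with normexp and -0.97 with its dimmer probe. Il33 was -0.00042 in the authors' deposited table, and -0.16 to 0.17 when 1 array was left out. The change of Il1rn minus Il1b was -0.10 with normexp and -0.14 to 0.61 when 1 array was left out. That of Il1rl1 minus Il33 was -0.30 with normexp, -0.98 with the dimmer Il1rl1 probe, 1.18 against C4 and 1.11 against C4 without M25. The cause of these shifts was not tested. Under the alternatives 98 member values kept their direction and call, 8 turned direction, 6 lost the call (2 of them, both of Il1rl1, also turned) and 2 gained it. Il1r2 passed under all 14 alternatives tried. Requiring all arrays well above background left Il1a and Il1rl1 untested. Signals near background on C5 and C6 limit both, and p-values measure only the spread between these samples.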
